A study of Mus musculus with 48 samples.

Results

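The interferon-stimulated antiviral genes Ifit1, Ifit2, Ifit3, Isg15, Oasl2, Usp18, Rsad2, Mx1, Mx2 and Ifih1 were followed across all 48 arrays of the series. They were chosen by name, as the non-control probes whose annotated gene name is in this list of 10, and all 10 were found, with 12 of the 55681 probes of the array. Gene expression had been measured with 1-color Agilent mouse arrays in 2 cell types of the neonatal mouse brain. O4+ cells are oligodendrocyte precursors and immature oligodendrocytes, and CD11B+ cells are mostly microglia, the resident macrophages of the brain. Both were taken with magnetic beads from male Swiss pups, named as OF1 in the study's methods, that had received intraperitoneal injections of either PBS or IL1B at 10 ng/g from P1 to P5, a mouse model of perinatal systemic inflammation. The 8 groups of 6 samples each were O4+ cells of PBS and of IL1B pups at P5 and at P10, and CD11B+ cells of the same 4 conditions. P5 cells were collected hours after the last injection and P10 cells 5 days later, and the labels name no genetic change in any group. According to the methods, each sample pooled several brains, and O4+ and then CD11B+ cells were isolated in sequence from the same tissue.

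Type I interferons are secreted proteins that warn cells of infection. They bind a receptor made of IFNAR1 and IFNAR2, whose kinases activate transcription factors that switch on genes that carry an interferon-stimulated response element (ISRE). Interferon gamma, the type II interferon, signals through another receptor and activates many of the same genes. Microglia are a known source and target of such signals in the brain. Among the 10 genes, Ifih1 encodes the RNA sensor MDA5. Ifit1, Ifit2 and Ifit3 encode proteins that bind foreign RNA and restrain its translation, Oasl2 a relative of the oligoadenylate synthetases, Rsad2 the enzyme viperin, and Mx1 and Mx2 GTPases that trap viral particles. Isg15 encodes a ubiquitin-like protein that is attached to other proteins, and Usp18 the protease that removes it and that also dampens the receptor.

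The sequence before the gene start was available in RefSeq (build GRCm38.p6) for 7 of the 10 genes, with 2 starts for Ifit2. Mx1, Mx2 and Usp18 had no entry. In the 250 bases before each start, an ISRE core (GAAA, any 2 bases, GAAA, on either strand) was found in Isg15, Ifit3, Ifit1 and Rsad2, that is in 4 of the 8 member promoters, against 2.98% of all 32851 promoters in the table. Isg15 held 3 overlapping cores in a row, Ifit1 and Ifit3 held 2 each, and Rsad2 held 1. A GAS motif (TTC, any 3 bases, GAA), known from genes that respond to interferon gamma, was found in 1 of the 8, the first Ifit2 start, against 7.02% of all promoters, and a kappaB core (GGG, any 2 bases, TTTCC) in 0 of 8, against 1.41%. The 160 bases nearest the start are shown for the 4 genes with an ISRE core, and for the first start of Ifit2 as an example with no ISRE core, whose GAS match lies farther upstream than the bases shown. Oasl2 and Ifih1 also held no ISRE core, and their signals followed the mean of the other members. ISRE cores are in capitals. A match of letters is a description and does not show that a factor binds there. The windows are chr4:156200819-156200978 (minus strand) for Isg15, chr19:34583369-34583528 (plus strand) for Ifit3, chr19:34640729-34640888 (plus strand) for Ifit1, chr12:26456453-26456612 (minus strand) for Rsad2 and chr19:34550534-34550693 (plus strand) for Ifit2.
Isg15: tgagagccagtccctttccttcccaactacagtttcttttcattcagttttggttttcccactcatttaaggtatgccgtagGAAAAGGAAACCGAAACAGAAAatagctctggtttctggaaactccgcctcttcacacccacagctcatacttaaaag
Ifit3: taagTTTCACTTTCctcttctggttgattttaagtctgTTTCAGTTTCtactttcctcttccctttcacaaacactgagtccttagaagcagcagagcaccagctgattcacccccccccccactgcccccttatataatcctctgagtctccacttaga
Ifit1: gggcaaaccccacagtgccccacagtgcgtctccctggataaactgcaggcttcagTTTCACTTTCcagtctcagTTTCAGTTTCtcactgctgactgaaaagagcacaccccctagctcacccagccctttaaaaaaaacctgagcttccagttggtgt
Rsad2: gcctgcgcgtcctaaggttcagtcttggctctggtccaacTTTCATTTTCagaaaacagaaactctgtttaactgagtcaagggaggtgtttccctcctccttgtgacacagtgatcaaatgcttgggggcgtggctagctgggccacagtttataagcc
Ifit2: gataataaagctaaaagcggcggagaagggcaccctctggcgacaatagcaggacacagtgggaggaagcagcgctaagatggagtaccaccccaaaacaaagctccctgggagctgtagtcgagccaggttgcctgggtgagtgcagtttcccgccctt

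Each gene is described by its probe of highest mean signal. In the annotation of the files (build mm9) these probes lie at chr19:34723796-34723855 for Ifit1, chr19:34650244-34650303 for Ifit2, chr19:34663105-34663164 for Ifit3, chr4:155573649-155573708 for Isg15, chr5:115362168-115362227 for Oasl2 and chr6:121220874-121220933 for Usp18. The probe of Rsad2 lies at chr12:27127859-27127918, that of Mx1 at chr16:97668644-97668703, that of Mx2 at chr16:97782327-97782386 and that of Ifih1 at chr2:62435507-62435566. Isg15 and Ifih1 had a second probe each, at chr4:155573533-155573552 and chr2:62434960-62435019. Levels below are log2 signals on a scale common to all 48 arrays, and probes are not compared in level with one another. Differences between IL1B and PBS or between ages come from the 24 arrays of a cell type normalized together, which moved a member's signal by at most 0.27. A probe was called higher or lower at a Benjamini-Hochberg adjusted p under 0.05, by limma over all 55681 probes, with a ratio of the group medians over 1.5.

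Between 54.1% and 66.4% of probes were well above background on each array, and no 2 arrays were identical. The marker lists followed the labelled cell types, on scales set within each cell type. The mean log2 signal over 15 microglia genes lay between 16.00 and 16.66 on CD11B+ arrays and between 12.22 and 14.73 on O4+ arrays, and all 15 were above background on all PBS arrays of O4+ cells too. The mean over 13 oligodendrocyte lineage genes lay between 14.22 and 15.54 on O4+ arrays and between 9.12 and 11.53 on CD11B+ arrays. In bulk samples such as these, fewer cells of a type and less RNA per cell cannot be told apart. P5 and P10 arrays shared neither a slide nor a scan day, so that age cannot be told apart from either. The labels do not say whether samples of a group came from separate litters, and p-values measure only the spread between these samples.

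In PBS pups, 8 of the 10 genes had lower signal in O4+ than in CD11B+ cells at both ages, and Ifit2 and Mx2 did not. At P5, 8 genes were called lower in O4+ cells and 1 higher, where 21.8% of all probes were called lower and 19.8% higher. Mx1 encodes an antiviral GTPase. Its signal in CD11B+ cells was 7.53, 7.63 and 8.27 (lowest, median and highest of 6) and in O4+ cells 3.56, 3.77 and 4.52, where only 4 of 6 arrays were above background. The groups did not overlap, with a log2 difference of -3.84 ± 0.18 (SE, n = 6 against 6, limma adjusted p = 1.92e-09). With normexp background correction, which treats dim signals otherwise, it was -1.88. Ifit3 (-2.75), Ifih1 (-2.71), Isg15 (-2.45), Oasl2 (-2.26), Rsad2 (-2.04), Ifit1 (-1.60) and Usp18 (-1.53) were lower in O4+ cells too, without overlap between the groups. With normexp Ifit1 was no longer called, at -0.57, and Usp18 was at -0.99. The second Ifih1 probe was not well above background on any O4+ array, so that it gives only bounds, of at least 2.45-fold lower in O4+ cells of IL1B pups at P5 and at least 1.76-fold lower at P10.

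Ifit2 ran the other way at P5. Its signal was 7.95, 8.30 and 8.54 in O4+ cells and 6.92, 7.10 and 7.67 in CD11B+ cells of PBS pups, and all O4+ arrays lay above all CD11B+ arrays. The log2 difference was 1.09 ± 0.13 (SE, adjusted p by limma = 1.46e-05, n = 6 each). Mx2 was at 9.02, 9.10 and 9.20 in O4+ cells and at 8.59, 8.77 and 9.04 in CD11B+ cells, a difference of 0.32 ± 0.09 (limma adjusted p = 0.00649) that did not reach the 1.5-fold ratio. At P10, the same 8 genes were called lower in O4+ cells (20.2% of all probes lower, 22.2% higher), with Mx1 at -4.64 ± 0.30, where 1 of 6 O4+ arrays was above background. With normexp Mx1 was at -2.25, Rsad2 at -1.17 in place of -1.90, Usp18 at -0.93 in place of -1.42, and Ifit1 was no longer called, at -0.41 in place of -1.42. There Mx2 was called higher in O4+ cells, by 1.13 ± 0.14 (limma adjusted p = 2.33e-05), and its O4+ arrays, from 10.50 to 11.07, lay above all CD11B+ arrays, from 9.35 to 10.00. Ifit2 differed by 0.43 (95% confidence interval 0.04 to 0.81, adjusted p by limma = 0.0619).

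**Figure D1:**
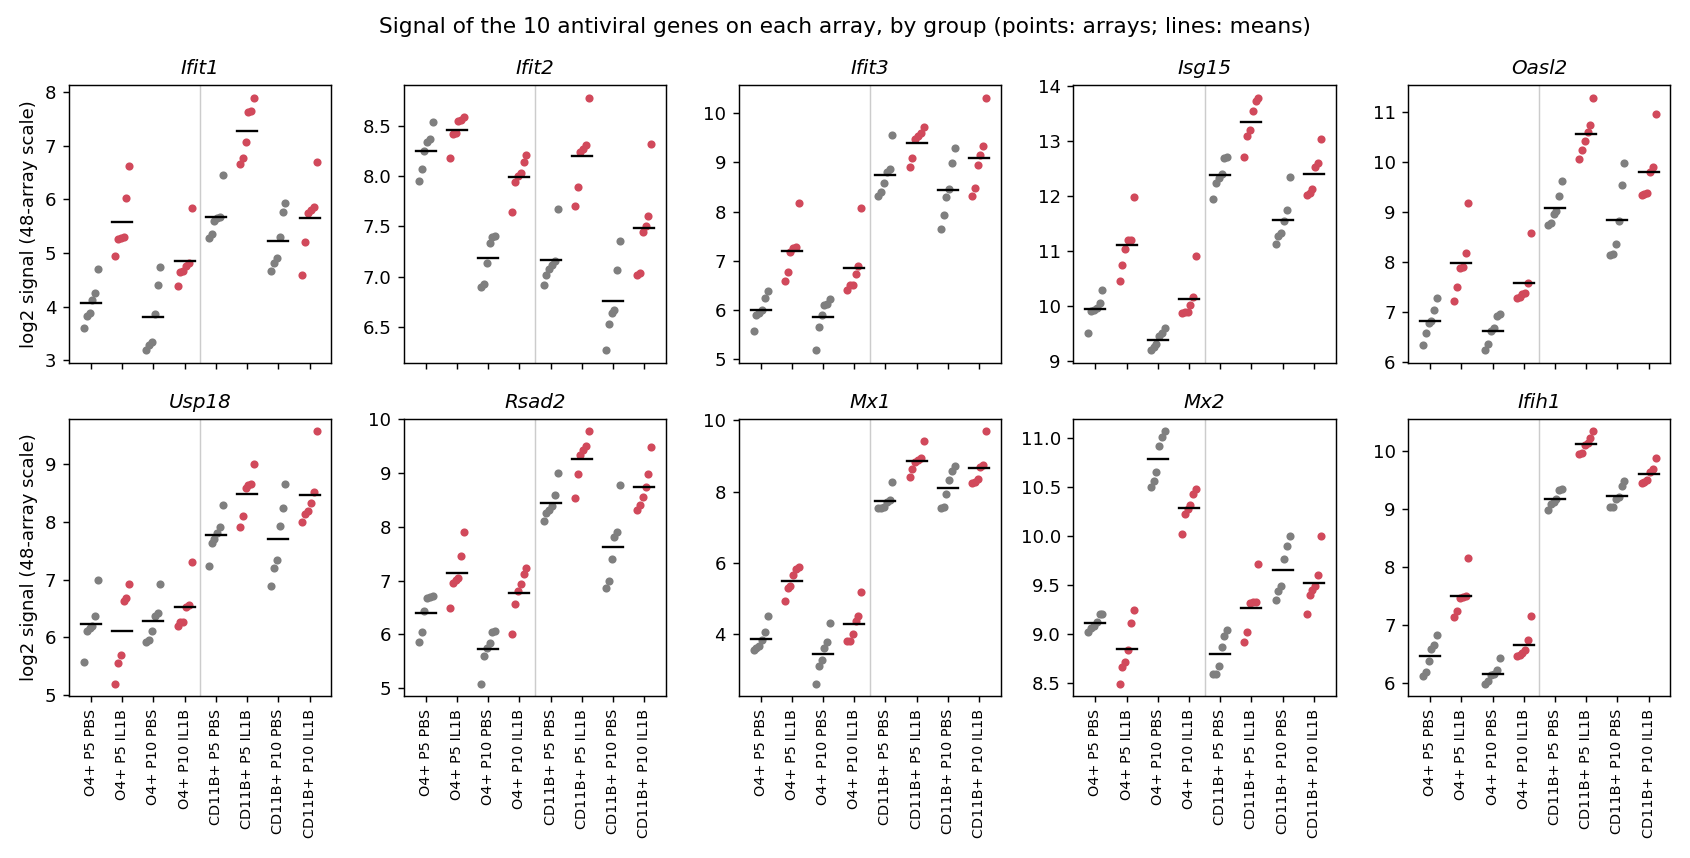
Log2 signal (48-array scale) of the 10 antiviral genes on each of the 48 arrays, by group on the horizontal axis, with PBS in gray, IL1B in red, points spread sideways by rank and a line at each mean of 6 arrays; the vertical axes differ between genes. Most genes sit lower on O4+ than on CD11B+ arrays, whereas Mx2 is highest in O4+ cells of P10 PBS pups, with a median of 10.78. Ifit2 has its highest medians in O4+ cells at P5, 8.30 in PBS and 8.49 in IL1B pups. CD11B+ cells of P5 IL1B pups, with an Ifit2 median of 8.26, overlap both.

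The gap between the cell types was present in IL1B pups as well. At P5, 8 genes were called lower in O4+ cells and 0 higher (24.4% and 19.8% of all probes), from -3.36 for Mx1 to -1.71 for Ifit1, which was at -1.03 with normexp. Mx2 differed by -0.43 ± 0.16 (limma adjusted p = 0.0333) without reaching the 1.5-fold ratio, and Ifit2 differed by 0.26 (95% confidence interval -0.09 to 0.61). At P10, 7 genes were called lower and 1, Mx2 by 0.77 ± 0.12, higher (21.0% and 21.9% of all probes). Ifit1, the gene not called of the 8, differed by -0.80 (95% confidence interval -1.54 to -0.07, adjusted p by limma = 0.0628), and was called lower with scan day or replicate number as a block. With slide as a block, 4 genes stayed called lower at P10 in IL1B pups, namely Isg15, Rsad2, Mx1 and Ifih1.

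**Figure D2:**
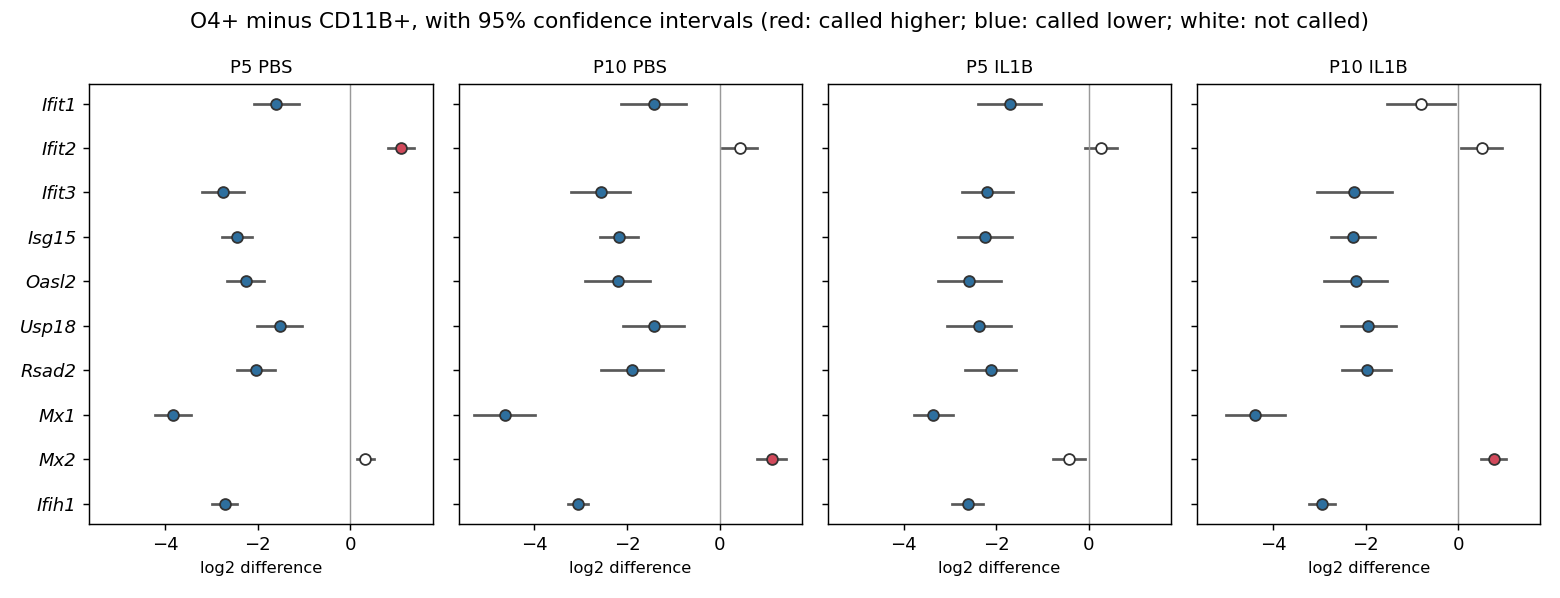
Log2 difference of O4+ minus CD11B+ cells for each of the 10 genes in the 4 conditions, with 95% confidence intervals from limma (n = 6 against 6), red for called higher, blue for called lower and white for not called. In PBS pups 8 genes lie left of 0 at both ages, with Mx1 at -3.84 and -4.64 (-1.88 and -2.25 with normexp background correction), while Ifit2 and Mx2 lie right of it.

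Most of the 10 genes were higher with IL1B in O4+ cells at P5. Ifit1, Ifit3, Isg15, Oasl2, Mx1 and Ifih1 were called higher and no member lower, where 3.44% of all probes were called higher and 1.49% lower. The median difference of the 10 was 1.06 on the log2 scale, against -0.04 over all probes. The sensor gene Ifih1 went from 6.12, 6.48 and 6.83 in PBS to 7.14, 7.47 and 8.15 in IL1B pups (log2 signal, lowest, median and highest of 6). All its IL1B arrays lay above all PBS arrays, with a difference of 1.03 ± 0.17 (SE, n = 6 each, limma adjusted p = 0.00176). Its second probe was not well above background on any of the 24 O4+ arrays.

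The IFIT genes differed from one another. Ifit1 went from 3.61, 4.00 and 4.71 to 4.94, 5.30 and 6.62, without overlap, by 1.54 ± 0.29 (limma adjusted p = 0.00348), although only 4 of 6 PBS arrays were above background. With normexp it was no longer called, at 0.59. Ifit3 went from 5.57, 5.96 and 6.39 to 6.59, 7.21 and 8.17, again without overlap, by 1.19 ± 0.24 (limma adjusted p = 0.00517). Ifit2, already high in these cells, stood at 7.95, 8.30 and 8.54 in PBS and at 8.18, 8.49 and 8.59 in IL1B pups. The groups overlapped, and the difference was 0.20 (95% confidence interval -0.02 to 0.42, adjusted p by limma = 0.226).

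Isg15, the ubiquitin-like protein, went from 9.50, 9.94 and 10.28 to 10.44, 11.11 and 11.98 without overlap, by 1.08 ± 0.21 (limma adjusted p = 0.00462), and its second probe by 1.12. Usp18, the protease that acts on ISG15, stood at 5.58, 6.18 and 6.99 in PBS and at 5.20, 6.16 and 6.92 in IL1B pups. These groups overlapped throughout, and the difference was -0.12 (95% confidence interval -0.84 to 0.59). Oasl2 went from 6.34, 6.80 and 7.27 to 7.21, 7.88 and 9.17, by 1.14 ± 0.28 (limma adjusted p = 0.0161), with 5 of 6 IL1B arrays above all PBS arrays. Rsad2, which encodes viperin, went from 5.85, 6.55 and 6.71 to 6.49, 7.03 and 7.90. Its difference of 0.74 ± 0.23 passed the test (limma adjusted p = 0.0473), but the ratio of medians was 1.39 and it was not called.

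The Mx genes parted as well. Mx1 went from 3.56, 3.77 and 4.52 to 4.93, 5.51 and 5.88, without overlap, by 1.64 ± 0.20 (limma adjusted p = 0.000234). It was above background on 4 of 6 PBS and on 6 of 6 IL1B arrays, and the difference was 0.60 with normexp, still called. Mx2 stood at 9.02, 9.10 and 9.20 in PBS and at 8.49, 8.77 and 9.24 in IL1B pups, a difference of -0.26 (95% confidence interval -0.51 to -0.02, adjusted p by limma = 0.135), with 1 IL1B array above all PBS arrays.

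Other cell types' markers moved in the same O4+ samples. At P5, the mean over the 15 microglia genes rose from between 13.06 and 13.67 to between 14.33 and 14.73, by 1.07 (exact permutation test over all splits of the 12 arrays, two-sided, smallest p 0.00216, adjusted p = 0.00649 over 24 tests), and 11 of the 15 were called higher. The mean over 7 neutrophil and monocyte genes rose from between 3.56 and 4.44 to between 6.16 and 9.67, by 4.19 (exact permutation test, adjusted p = 0.00649), and all 7 were called higher, while Ngp, Ccr2 and Retnlg were above background on no PBS array. The oligodendrocyte lineage list fell by 0.29 (exact permutation test, adjusted p = 0.00649) and the list of 6 endothelial genes by 0.79 (exact permutation test, adjusted p = 0.00945), with 4 of the 6 called lower. Of the members, 8 have more signal in CD11B+ than in O4+ cells, and the part of these shifts in the members' rise was not tested.
With slide as a fixed block 2 genes, Mx1 and Ifih1, stayed called at P5 in O4+ cells, at a median difference of 0.90 over the 10. Within the 2 slides that held both groups, with 1 IL1B array each, 8 and 7 of the 10 differences were positive, at medians of 1.01 and 0.72.

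**Figure D3:**
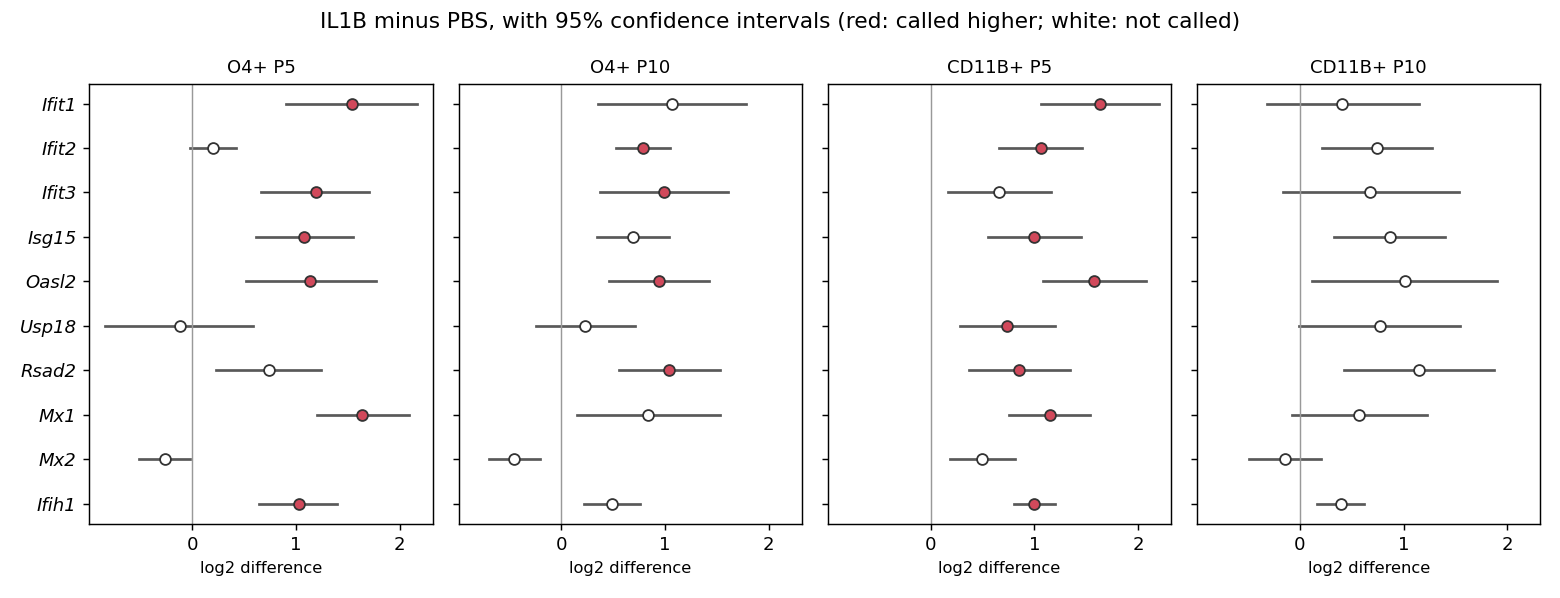
Log2 difference of IL1B minus PBS for each of the 10 genes in the 4 combinations of cell type and age, with 95% confidence intervals from limma (n = 6 against 6), red for called higher and white for not called. The number of red points is 6, 4, 8 and 0 from left to right, and Mx2 lies left of 0 in both O4+ panels, at -0.26 and -0.46.

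In CD11B+ cells at P5, 8 of the 10 genes were called higher and 0 lower (4.06% and 5.25% of all probes). The median difference was 1.00, against -0.01 over all probes. Ifih1 was the most uniform, from 8.99, 9.15 and 9.34 in PBS to 9.94, 10.12 and 10.34 in IL1B pups, without overlap, by 1.00 ± 0.09 (SE, n = 6 each, limma adjusted p = 1.26e-05). Its second probe gave 1.04, with 2 of 6 PBS arrays above background. Ifit1 went from 5.28, 5.62 and 6.45 to 6.66, 7.36 and 7.90, by 1.63 ± 0.26 (limma adjusted p = 0.000816), or 0.92 with normexp. Oasl2 went from 8.73, 8.99 and 9.62 to 10.05, 10.51 and 11.28, by 1.58 ± 0.23 (limma adjusted p = 0.000398). Both were without overlap between the groups.

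Ifit2 went in CD11B+ cells from 6.92, 7.10 and 7.67 to 7.70, 8.26 and 8.78, without overlap, by 1.06 ± 0.18 (limma adjusted p = 0.0014). Mx1 rose by 1.15 ± 0.18, Isg15 by 1.00 ± 0.21, Rsad2 by 0.85 ± 0.22 and Usp18 by 0.74 ± 0.21 (limma adjusted p between 0.000639 and 0.0264). For Isg15, 5 of 6 IL1B arrays lay above all PBS arrays, and for Rsad2 and Usp18 4 of 6. The Usp18 call was lost under 9 of 24 alternatives, among them leaving out PBS replicate 1 or 4 or IL1B replicate 2, 4 or 6 (0.63 to 0.72), and that of Rsad2 with the deposited values (0.67) and with slide or scan day as a block. The remaining 2 were near the thresholds. Mx2 went from 8.59, 8.77 and 9.04 to 8.92, 9.32 and 9.71, by 0.50 ± 0.14 (limma adjusted p = 0.0246), with a ratio of medians of 1.48, and Ifit3 differed by 0.66 (95% confidence interval 0.17 to 1.16, adjusted p by limma = 0.057).
Here the microglia list differed by -0.12 (exact permutation test, adjusted p = 0.012), a direction that turned to 0.09 when arrays were scaled to their 75th percentile. The neutrophil and monocyte list rose from between 9.24 and 10.55 to between 13.29 and 13.97, with all 7 genes called higher. The lymphocyte list rose by 0.95 with 2 of 6 genes called higher, the endothelial list fell by 0.87 with 4 of 6 called lower, and the oligodendrocyte lineage list fell by 0.46 (exact permutation test, adjusted p of 0.00945, 0.00649 and 0.00945). The part of these shifts in the members' rise was not tested. With slide as a fixed block only Ifih1 stayed called in CD11B+ cells at P5, at a median difference of 0.95 over the 10 genes. A single slide held both groups, with 1 PBS and 4 IL1B arrays, and there all 10 differences were positive.

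At P10, 5 days after the last injection, part of the genes had higher signal with IL1B in O4+ cells. Ifit2, Ifit3, Oasl2 and Rsad2 were called higher and 0 of the 10 lower, where 2.49% of all probes were called higher and 1.41% lower, and the median difference was 0.82. Of these genes, Ifit3 and Oasl2 had been called in O4+ cells at P5 too, and Ifit2 and Rsad2 had not. Rsad2 went from 5.08, 5.79 and 6.06 in PBS to 6.01, 6.86 and 7.23 in IL1B pups, with 1 array of overlap, by 1.04 ± 0.22 (SE, n = 6 each, limma adjusted p = 0.0136), or 0.63 with normexp. Ifit2 went from 6.90, 7.24 and 7.40 to 7.64, 8.01 and 8.21, without overlap, by 0.79 ± 0.12 (limma adjusted p = 0.00324). Oasl2 went from 6.23, 6.64 and 6.95 to 7.28, 7.36 and 8.57, by 0.94 ± 0.22 (limma adjusted p = 0.0203), likewise without overlap, and its call was lost with normexp and with slide or replicate number as a block.

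Ifit3 went from 5.18, 5.99 and 6.23 to 6.40, 6.62 and 8.08, by 0.99 ± 0.28 (limma adjusted p = 0.0472). Its groups did not overlap, but the call was lost on leaving out any single one of the 12 arrays and with slide as a block. The Ifit3 call was also lost with normexp and with the equal-variance test of the methods. Isg15 also did not overlap between 9.59, the highest PBS array, and 9.86, the lowest IL1B array. Its difference of 0.69 ± 0.16 (limma adjusted p = 0.0192) had a ratio of medians of 1.45, while its second probe was called at 0.93 ± 0.19. Ifih1 rose by 0.49 ± 0.12 without overlap (limma adjusted p = 0.028), below the 1.5-fold ratio. Ifit1 differed by 1.07 (95% confidence interval 0.35 to 1.78, adjusted p by limma = 0.0589), Mx1 by 0.84 (0.15 to 1.53) and Usp18 by 0.23 (-0.24 to 0.71), with 3 of 6 PBS arrays above background for Ifit1 and 1 of 6 for Mx1.
Mx2 went down. It stood at 10.50, 10.78 and 11.07 in PBS and at 10.02, 10.30 and 10.48 in IL1B pups, without overlap, and differed by -0.46 ± 0.11 (limma adjusted p = 0.0234), with a ratio of medians of 1.37 that kept it from being called.

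The microglia list was higher by 0.48 in these O4+ samples at P10 (exact permutation test, adjusted p = 0.0277), with 8 of 15 genes called, the astrocyte list by 0.53 and the neutrophil and monocyte list by 1.84 (both adjusted p = 0.00649 by the exact permutation test), and their part in the result was not tested. The slide block left Ifit2 and Rsad2 called in O4+ cells at P10, normexp background correction left the same 2 genes, and 1 IL1B array, replicate 3, carried the highest value of 8 of the 10 genes. Of the 2 slides that held both groups, the first had 5 PBS and 2 IL1B arrays and the second only 1 of each. On each, 9 of the 10 differences were positive, at medians of 0.69 and 0.44.

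In CD11B+ cells at P10, 0 of the 10 genes were called in either direction by limma (1.09% of all probes higher and 1.08% lower). The equal-variance test of the methods called 0 as well. An unadjusted limma p under 0.05 was reached by 5 of the 10 genes, and by 12790 of all 55681 probes. Of the 10 differences, 9 were positive, at a median of 0.71. The largest differences were those of Rsad2, from 6.87, 7.61 and 8.77 to 8.32, 8.64 and 9.49 (1.15 ± 0.33, limma adjusted p = 0.0595), and of Oasl2, from 8.13, 8.58 and 9.98 to 9.34, 9.58 and 10.96 (1.01 ± 0.41, limma adjusted p = 0.161). Both overlapped between the groups. Isg15 differed by 0.87 ± 0.24 (limma adjusted p = 0.0571), and Ifih1 by 0.40 ± 0.10 (limma adjusted p = 0.0466) with a ratio of medians of 1.31. The second Ifih1 probe was called, at 1.42 ± 0.35 (limma adjusted p = 0.0379), with 1 of 6 PBS and 4 of 6 IL1B arrays above background. PBS arrays spread widely here. Without PBS replicate 6, in which 8 of the 10 genes were highest, 4 genes were called higher. With slide as a block the median difference was 0.36, and on the single slide with both groups, 2 PBS and 5 IL1B arrays, it was 0.36 too. The neutrophil and monocyte list was higher by 1.05 (exact permutation test, adjusted p = 0.039), and the lymphocyte list by 0.93 (adjusted p = 0.0186), with 2 of 6 genes called higher. The oligodendrocyte lineage list was lower by 0.64 with 4 of 13 genes called lower, the endothelial list by 0.25 and the microglia list by 0.08 (exact permutation test, adjusted p of 0.00649, 0.012 and 0.0397). The part of these shifts in the members' values was not tested.

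Whether the response to IL1B differed between ages or cell types was tested by interaction terms, where an adjusted p under 0.05 sufficed for a call, with no fold rule. Comparisons of this kind share their control arrays with those above. In O4+ cells 1 of the 10 was called, where 7.83% of all probes were called higher and 5.32% lower, a share near that of all probes. It was Ifit2, by 0.59 ± 0.16 more at P10 than at P5 (limma adjusted p = 0.015), and it was not called with slide as a block. The other 9 genes differed by -0.80 to 0.36, at adjusted p of 0.111 or more. In CD11B+ cells 2 of the 10 were called, where 10.5% of all probes were called higher and 6.30% lower, again a share near that of all probes. They were Ifih1 and Mx2, with smaller responses at P10, by -0.61 ± 0.14 (limma adjusted p = 0.00367) and -0.64 ± 0.22 (limma adjusted p = 0.0438). Both calls were lost with the deposited values, at -0.36 for Ifih1 and -0.38 for Mx2, and with slide as a block. The second Ifih1 probe gave 0.38 in the opposite direction, and the Mx2 call was lost on leaving out any of 16 of the 24 arrays.
Between cell types at P5, Ifit2 and Mx2 responded less in O4+ than in CD11B+ cells, by -0.84 ± 0.21 (limma adjusted p = 0.0109) and -0.76 ± 0.18 (limma adjusted p = 0.00733), against 3.78% of all probes called lower and 6.93% higher. With slide as a block only Mx2 stayed called. For Ifih1 the difference of the responses was 0.09 (95% confidence interval -0.32 to 0.50), for Isg15 0.20 (-0.44 to 0.84) and for Ifit1 -0.11 (-0.93 to 0.71). With 6 arrays a group, taken as unpaired, differences of these sizes either way were not distinguishable. At P10, 0 of the 10 genes passed (3.92% of probes higher and 3.65% lower by limma), and the differences ran from -0.51 to 0.62. An unadjusted limma p under 0.05 was reached there by 0 of the 10 genes and by 11578 of all 55681 probes. The second Ifih1 probe was called there, at -1.41 ± 0.39 (limma adjusted p = 0.0293), with no O4+ array well above background.

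Between P5 and P10 in PBS pups, Mx2 rose in both cell types. In O4+ cells it went from between 9.02 and 9.20 to between 10.50 and 11.07, by 1.56 ± 0.10 (limma adjusted p = 3.45e-07), and in CD11B+ cells from between 8.59 and 9.04 to between 9.35 and 10.00, by 0.91 ± 0.14 (limma adjusted p = 0.000668). The ages did not overlap in either. Ifit2 was lower at P10 in O4+ cells, from between 7.95 and 8.54 to between 6.90 and 7.40, at -1.05 ± 0.12 (limma adjusted p = 4.02e-05), and so was Rsad2, at -0.67 ± 0.20 (limma adjusted p = 0.0225). Isg15 was lower in CD11B+ cells, at -0.86 ± 0.22 (limma adjusted p = 0.0143), and in O4+ cells it differed by -0.52 ± 0.11 (limma adjusted p = 0.00333) below the 1.5-fold ratio, while its second probe was called lower there, at -0.77 ± 0.16. Of all probes, 7.87% were called higher and 8.97% lower at P10 in O4+ cells, and 4.65% higher and 3.62% lower in CD11B+ cells. The other 6 genes in O4+ cells differed by -0.43 to 0.05 and the other 8 in CD11B+ cells by -0.83 to 0.39, none past the test. With slide as a random block, Rsad2 and Isg15 were no longer called, while Mx2 and Ifit2 were.

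In IL1B pups, the single array that stood highest for these genes at each age carried the same replicate number in both cell types. In PBS pups the highest arrays carried different numbers, but at P10 the lowest was replicate 4 in both cell types. At P5, replicate 4 of IL1B pups had the highest mean of the 10 genes among O4+ arrays (8.24, against a group median of 7.56) and among CD11B+ arrays (9.88, against 9.55), and replicate 5 had the lowest in both. In IL1B pups at P10, replicate 3 was highest in both, at 7.86 and 9.79, and held the top value of 8 of the 10 genes in O4+ and of 10 of 10 in CD11B+ cells. Over the 24 pairs of equal condition and number, the deviations of this mean from the group means had a Pearson r of 0.70 and a Spearman rho of 0.70, and r was 0.57 without the 2 pairs whose O4+ arrays lay farthest out. Within the 6 pairs of each condition r was 0.04 for PBS and 0.91 for IL1B at P5, and 0.72 and 0.91 at P10. The Spearman rho was 0.31 for PBS and 0.94 for IL1B at P5, and 0.83 and 0.49 at P10. This is given as a description, since arrays of a pair share age and treatment, and the labels do not say that a number marks the same pups. Of the O4+ arrays, replicate 4 of IL1B pups at P5 had a microglia list mean of 14.63, in a group from 14.40 to 14.82, and replicate 3 at P10 the second highest of its group, 13.16, in a group from 12.63 to 13.30. The part of microglia in these values was not tested.

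**Figure D4:**
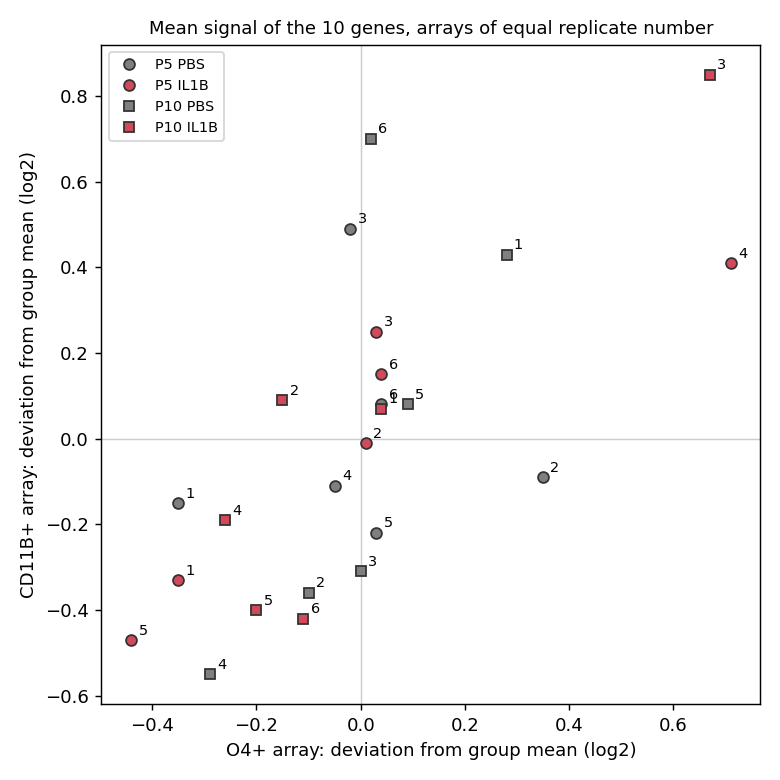
Deviation of the mean log2 signal of the 10 genes from the group mean, on O4+ arrays (horizontal) and CD11B+ arrays (vertical) of the same condition and replicate number, with the number beside each of the 24 points, circles for P5, squares for P10, gray for PBS and red for IL1B. Replicate 3 of IL1B pups at P10 and replicate 4 at P5 lie at the upper right, and r over the 24 pairs is 0.70.

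Further genes of the interferon pathway were taken from lists chosen with earlier results of these data known, and 66 were on the array. Of these 66, 24 were called higher with IL1B and 0 lower in O4+ cells at P5, 26 and 1 in CD11B+ cells at P5, 8 and 1 in O4+ cells at P10, and 7 and 0 in CD11B+ cells at P10. Over all probes, 3.44%, 4.06%, 2.49% and 1.09% were called higher in that order. The median differences of the 66 were 0.35, 0.48, 0.24 and 0.15 in that order. In PBS pups at P5, 48 of the 66 were called lower in O4+ than in CD11B+ cells and 1 higher. Of all probes, 21.8% were called lower there and 19.8% higher. The part of the shifts in the marker lists in the changes of these genes was not tested. Among 13 interferon genes, Ifng, which encodes interferon gamma, rose in CD11B+ cells by 4.02 ± 0.36 at P5 (limma adjusted p = 1.25e-05) and by 3.96 ± 0.84 at P10 (limma adjusted p = 0.0247), from a PBS level above background on 2 and 1 of 6 arrays. Ifnb1, the gene of interferon beta, differed in the opposite way in CD11B+ cells at P5, at -1.46 ± 0.28 (limma adjusted p = 0.00252), and rose by 0.57 ± 0.10 at P10 (limma adjusted p = 0.017). In O4+ cells Ifng and Ifna13 were called at P5 but were above background on 0 PBS and on 1 and 4 IL1B arrays, so no fold is given, and Ifnk was lower at P10, at -1.07 ± 0.27 (limma adjusted p = 0.0292).

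Of 7 receptor and kinase genes, Ifngr1 and Ifngr2, the chains of the interferon gamma receptor, rose in O4+ cells at P5 by 0.89 and 0.78, and 0 were called in the other 3 comparisons. Of 5 transcription factor genes, Irf7 alone was called in O4+ cells at P5 (0.75), and 4 in CD11B+ cells at P5, led by Irf7 (1.45) and Stat2 (0.84), against 0 in both cell types at P10. Of 10 sensors and adaptors, 6 were called in O4+ and 4 in CD11B+ cells at P5, and 1 and 2 at P10. Zbp1, a sensor of nucleic acids, was called in all 4 comparisons, at 2.07 and 1.28 in O4+ cells at P5 and P10 and at 2.75 and 1.84 in CD11B+ cells. Tlr7, a receptor of RNA in endosomes, rose by 1.94 in O4+ cells at P5, and Ikbke, a kinase below the sensors, by 2.04 in CD11B+ cells at P5 and 1.33 at P10.

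Of the 3 genes that conjugate ISG15, the activating enzyme Uba7 was called at P5 in both cell types (1.18 in O4+ and 0.66 in CD11B+ cells) and the ligase gene Herc6 in O4+ cells at P10 (0.77). Of 26 other antiviral effectors, 11 were called higher in O4+ and 13 in CD11B+ cells at P5, and 6 and 3 at P10, with 0 lower. Parp14 (2.01) and Ifi204 (1.95) led in O4+ cells at P5, Ifi44 (1.23) and Isg20 (1.02) at P10, and Ifitm1, a membrane protein that blocks viral entry, with Oas3 led in CD11B+ cells at P5 (3.80 and 3.27) and P10 (1.16 and 2.39). Oas3 was above background on 1 of 6 PBS arrays of CD11B+ cells at each age. The feedback inhibitor Socs3 rose at P5 by 2.21 in O4+ and 1.60 in CD11B+ cells, Socs1 by 0.94 in CD11B+ cells, and 0 of the 2 was called at P10.

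Of 17337 gene names above background on all arrays of at least 1 group, those whose pattern over the 48 arrays was most like the mean of the 10 genes were Rtp4 (Pearson r = 0.988), Irf7 (0.980), Xaf1 (0.972), Rnf213 (0.971), Pyhin1, Oasl1, Oas1a, Oas1f, Gvin1 and Plac8 (0.962). Most of this pattern is the difference between the cell types. Within the 24 O4+ arrays the closest were Rtp4 (0.974), D14Ertd668e (0.939) and the interferon-inducible GTPase genes Igtp (0.925) and Irgm2 (0.925), followed by Gm12250, Xaf1, Rnf213, Nlrc5, Tap1 and Zbp1. Within the 24 CD11B+ arrays they were Gm4951 (0.960), Oas2 (0.959), Samd9l (0.953), Rtp4 and Irf7 (0.948), followed by Rnf213, Pyhin1, Xaf1, Trex1 and Ifitm3. These correlations are over arrays that share groups, slides and depth and carry no test. Among the 10 genes themselves, 8 had r of 0.87 or more with the mean of the other 9 over the 48 arrays, whereas Ifit2 had -0.08 and Mx2 -0.39. Within O4+ arrays Mx2 had -0.52, Usp18 0.34 and Ifit2 0.44, and within CD11B+ arrays Ifit2 had 0.95, Usp18 0.90 and Mx2 0.23.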

How the data were processed

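RNA of 48 samples (8 groups of 6) was hybridized to 1-color Agilent 8x60K mouse arrays with mm9 probe annotation. The authors read the arrays with Agilent Feature Extraction and deposited the intensity of each spot, background-subtracted but not normalized between arrays. They also deposited a value table holding the ratio of each spot's signal to the median of its array, on a linear scale, found by setting it against the intensities (largest deviation 1.86e-05 on the log2 scale).
From these, the processed intensity was put on the log2 scale and arrays were quantile normalized, the 24 of each cell type among themselves and all 48 jointly for comparisons between cell types. The 278 non-uniform spots were left out of 48 arrays of 59305 spots, and spots of a probe were averaged. No spot was saturated. Groups came from the titles, source names and stages in the labels. Tests of 6 against 6 arrays used limma 3.58.1 (R 4.3.3), and differences of responses with interaction terms over 4 groups, with Benjamini-Hochberg adjustment over 55681 probes. The methods' equal-variance test, which limma replaced, was run as an alternative. The scripts were tested on simulated data. The number of arrays limits the precision.
The 10 members are named throughout by the probe of highest mean signal, and second probes where they disagree in call or direction. From each pathway list, the 2 called genes of largest change with IL1B are named. Members, lists and motifs were chosen with earlier results of these data known.
Alternatives were 75th percentile scaling, normexp background correction with an offset of 50, the deposited ratios, joint or separate normalization, a filter on dim probes, other fold rules, all groups in 1 fit, blocks for slide, scan day or replicate number, other probes and leaving out each array. In no comparison did same-numbered arrays correlate at r over 0.1 over all probes in every pair (r from -0.09 to 0.48). The numbers were therefore not used as pairs. Between cell types r was low but mostly above 0, from 0.02 to 0.12 in P5 PBS and 0.03 to 0.15 in P10 PBS pups. It ran from -0.09 to 0.12 in P5 IL1B and 0.07 to 0.41 in P10 IL1B pups. A pairing of the cell types is thus not excluded, and for the mean of the 10 genes r over the 24 pairs was 0.70. Tests between cell types took the arrays as independent, so their standard errors leave out any such pairing. With replicate number as a block, the same 8 members were called lower in O4+ cells of PBS pups at both ages. The same 2 were called for the response between cell types at P5. Ifi27 and 3 interferon genes of the lists were not found on the array.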

Additional observations from a re-analysis of the deposited data

Results flagged for a closer look

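Of 80 sets of 6 arrays (10 genes in 8 groups), 12 held an array far from the other 5 by Dixon's criterion. Chance gives about 1 in 20 for independent sets. These sets share arrays and most of the genes vary together, so the count cannot be set against that rate. In O4+ cells of IL1B pups at P10, replicate 3 was far above the others for Ifit1 (5.84, next 4.81), Ifit3 (8.08, next 6.90), Isg15 (10.91, next 10.15), Oasl2 (8.57, next 7.57) and Usp18 (7.30, next 6.57). In CD11B+ cells of IL1B pups at P10, replicate 3 was far above for Oasl2 (10.96, next 9.89), Usp18 (9.57, next 8.52) and Mx1 (9.69, next 8.74). In CD11B+ cells of PBS pups at P5, replicate 3 was far above for Ifit1 (6.45, next 5.68), Ifit2 (7.67, next 7.16) and Mx1 (8.27, next 7.76). In O4+ cells of IL1B pups at P5, replicate 4 was far above for Ifih1 (8.15, next 7.50). All are log2 signals.

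The response to IL1B was called different by limma's interaction term for 3 genes. That of Ifit2 was larger at P10 than at P5 in O4+ cells, by 0.59, and smaller in O4+ than in CD11B+ cells at P5, at -0.84. That of Mx2 was smaller in O4+ than in CD11B+ cells at P5, at -0.76, and smaller at P10 than at P5 in CD11B+ cells, at -0.64. That of Ifih1 was smaller at P10 than at P5 in CD11B+ cells, at -0.61. Of all probes, 7.83% were called higher and 5.32% lower with age in O4+ cells. The shares were 10.5% and 6.30% with age in CD11B+ cells, and 6.93% and 3.78% between cell types at P5. With slide as a block, only the call of Mx2 between cell types stayed. Both calls with age in CD11B+ cells were lost with the deposited values, and the second Ifih1 probe gave 0.38 there.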

How the results depend on the processing

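Counts of members called higher with IL1B under a fixed slide block were 2 and 2 in O4+ cells at P5 and P10 and 1 in CD11B+ cells at P5. The block lowered the counts over all probes too, from 1916 to 1418, from 1387 to 916 and from 2258 to 1306 in that order. In CD11B+ cells at P10 they went from 607 to 0. In O4+ cells at P10, normexp gave 2 higher, with 608 of all probes called higher in place of 1387. Without a fold threshold 1 member was called lower, with 3022 of all probes called lower in place of 786. In CD11B+ cells at P10, where 0 were called, 75th percentile scaling, no fold threshold, the other probes and the mean over probes gave 1 each, normexp 2, and the filter on dim probes and all groups in 1 fit 3 each. Over all probes, 607 were called higher there as reported, 590 with 75th percentile scaling and 1863 without a fold threshold. The count was 429 with normexp, 845 with the dim filter and 866 with all groups in 1 fit. Between cell types, 2 were called higher in O4+ cells at P5 in PBS pups without a fold threshold and 2 at P10 in PBS and in IL1B pups with 75th percentile scaling, and the slide block left 4 lower at P10 in IL1B pups. With age in PBS pups, normexp and random blocks for slide or scan day left 1 lower in O4+ cells. In CD11B+ cells the dim filter and all groups in 1 fit gave 2 lower, and the random blocks 0.

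For the change of response with age, the slide block left 0 called higher in O4+ cells and normexp gave 2 lower. In CD11B+ cells the deposited values and the slide block gave 0 lower, and the scan day block, the other probes and the mean over probes 1 each, with Ifih1 at 0.38 by its other probe. For the difference between cell types, 1 stayed lower at P5 with the slide block and 1 was lower at P10 with the other probes. The microglia list with 75th percentile scaling differed by 0.34 in O4+ cells at P10 and by 0.09 and 0.00 in CD11B+ cells at P5 and P10. None of these passed the exact permutation test (adjusted p of 0.0837, 0.101 and 0.937 in that order). Usp18 in O4+ cells at P5 turned to 0.05 with scan day as a block, and ranged from -0.29 to 0.06 on leaving out 1 array, above 0 in 2 cases (0.02 and 0.06). The cause was not tested for any of these.

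Replicate numbers as a block, which the labels do not describe as pairs, gave 6, 4, 9 and 0 members called higher with IL1B in O4+ cells at P5 and P10 and CD11B+ cells at P5 and P10 (in O4+ cells at P10 with Mx1 in place of Oasl2), and 1 lower with age in O4+ PBS cells and 1 lower in the response of CD11B+ cells with age. It moved no other count by over 1.5 times.

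Leaving out 1 array gave 6 to 6, 3 to 5, 7 to 10 and 0 to 4 members higher with IL1B in that order, the 4 without CD11B+ P10 PBS replicate 6. Members called higher in O4+ than in CD11B+ cells of P10 PBS pups numbered 1 to 2, with 2 without CD11B+ PBS replicate 1 or 6 or O4+ PBS replicate 2. Members lower with age numbered 1 to 2 in O4+ cells, with 1 without P5 PBS replicate 2, 5 or 6, and 1 to 2 in CD11B+ cells, with 2 without P10 PBS replicate 6. Lower responses with age numbered 0 to 1 in O4+ cells, with 1 without P10 IL1B replicate 3, and 1 to 3 in CD11B+ cells. In CD11B+ cells at P10, the microglia list ranged from -0.10 to -0.07 and the neutrophil and monocyte list from 0.93 to 1.41. There the adjusted p of the exact permutation test was no longer under 0.05 in 8 cases for the microglia list. The same held in 10 cases for the neutrophil and monocyte list. Over the values tested, 944 of those under another setting and 1050 of those without 1 array kept direction and call. Genes not called in either case are among these. Under another setting 45 values lost a call, 35 gained one and 2 changed direction, and without 1 array 36, 16 and 2. Signals of Ifit1 and Mx1 in O4+ cells of PBS pups were near background, which limits their differences.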
